A study of Mus musculus with 4 samples.

Results

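Transcripts of 31 genes of mitotic kinesins, the spindle and cytokinesis were followed in mice lacking MG56 (Hhatl), whose protein sits in internal membranes of striated muscle. Tibialis anterior (TA), a limb muscle rich in fast fibres, and heart were taken at postnatal day 9, on the C57BL/6J background. The 4 groups were MG56-knockout TA, wild-type TA, MG56-knockout heart and wild-type heart, and each has 1 Affymetrix array of pooled RNA. Per the series' design text, 3 knockout mice were pooled, and how many wild-type mice were pooled is unknown here. With 1 array per group there is no replicate error and no test, and every ratio below compares pools of RNA. The genes were listed by function, out of 18193 genes named on the array, with earlier results of these data known. All 31 have a probe set that carries their symbol alone, and 71 such probe sets were found for them.

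A spindle is built from microtubules, which kinesins slide, bundle, carry cargo along or take apart. Once chromosomes have parted, the overlapping microtubules between them form the central spindle, where a RhoA activator is placed that drives the contractile ring, and the last bridge between the daughter cells is then cut by the abscission machinery. Most of these genes are transcribed in G2 and mitosis only, so their RNA in a tissue is widely used as a measure of dividing cells. In mice, heart muscle cells leave the cell cycle in the first weeks after birth, while limb muscles are still adding nuclei from dividing satellite cells.

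Of the 31 genes, 28 reached the floor of 101, the median of all signals, on at least 1 array. All 28 had a lower signal in the knockout than in the wild-type pool, in TA and in heart alike, as did 51.2% of all measured genes in TA and 50.3% in heart. At the median gene the knockout signal was 54.5% of wild type in TA and 39.9% in heart. A ratio of at least 1.5-fold lower was reached by 24 of 28 genes in TA, where 4.43% of all 11556 measured genes reached it, and by 26 of 28 in heart, where 4.18% of 11478 did. None of the 28 was 1.5-fold higher in either tissue, against 4.19% of all genes in TA and 2.68% in heart. Kif18a in both tissues and Kif20b in TA reached the floor in the wild type only, and so had to come out lower. Without Kif18a and Kif20b, all 26 genes were lower in both tissues, 23 of them at least 1.5-fold in TA and 24 in heart. In RNA of whole tissue, fewer dividing cells and less RNA per dividing cell cannot be told apart.

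The promoters of these genes share a feature that the arrays do not measure. The cell cycle genes homology region (CHR) is a short element bound by the MuvB complexes that hold back or activate genes of late cell cycle, often near a CCAAT box, which the factor NF-Y binds. The canonical CHR word is TTTGAA. Its known variants in this search were TTCGAA, also the word CTTGAA, and lastly the word CCTGAA. These words and CCAAT were searched on both strands from 250 bases before to 50 after the start sites in RefSeq (GRCm38.p6), where 27 of the 31 genes were found. TTTGAA stood in the windows of 23 of the 27 genes, or 85.2%, and in 20.2% of the 27025 genes of that table. Within 50 bases of the start site it stood in 19 of 27 genes, or 70.4%, against 5.72% of all genes. CCAAT stood in 17 of 27, or 63.0%, against 41.1%, and the same 17 genes also held TTTGAA, as 7.97% of all genes did. With all 4 CHR words the count stayed at 23 of 27, against 45.6% of all genes. These are counts of letters and not of bound sites.

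The stretches below, 150 bases that end at the base before the start site, are shown because they hold TTTGAA and CCAAT side by side. In the first 6 genes the knockout signal was at least 1.5-fold lower in each tissue, and Ckap5, the last, holds the same words and differed least of all 28 genes. Ckap2 also holds both words in its 150 bases and is not shown. The heart value of Kif22 rests on probe sets that can match several transcripts, and its other probe set gave a log2 ratio of -0.37. The stretches lie at chr19:37376232-37376381 on the plus strand for Kif11, chr7:127042421-127042570 on the minus strand for Kif22, chr3:27153855-27154004 on the minus strand for Ect2, chr2:113848662-113848811 on the minus strand for Arhgap11a, chr3:159495283-159495432 on the plus strand for Depdc1a, chr2:129297213-129297362 on the minus strand for Ckap2l and chr2:91526612-91526761 on the plus strand for Ckap5 (GRCm38.p6). Each is written 5′ to 3′ on the strand of its gene, and capitals mark every whole TTTGAA or CCAAT in it, which read TTCAAA or ATTGG where the word lies on the opposite strand.
Kif11: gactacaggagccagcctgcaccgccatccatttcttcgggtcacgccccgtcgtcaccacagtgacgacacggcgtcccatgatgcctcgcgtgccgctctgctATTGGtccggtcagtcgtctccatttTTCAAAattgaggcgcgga
Kif22: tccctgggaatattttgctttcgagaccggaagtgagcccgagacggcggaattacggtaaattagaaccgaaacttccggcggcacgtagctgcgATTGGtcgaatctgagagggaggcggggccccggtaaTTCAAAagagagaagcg
Ect2: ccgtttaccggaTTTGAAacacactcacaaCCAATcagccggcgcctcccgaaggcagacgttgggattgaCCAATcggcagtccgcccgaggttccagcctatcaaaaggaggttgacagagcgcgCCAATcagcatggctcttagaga
Arhgap11a: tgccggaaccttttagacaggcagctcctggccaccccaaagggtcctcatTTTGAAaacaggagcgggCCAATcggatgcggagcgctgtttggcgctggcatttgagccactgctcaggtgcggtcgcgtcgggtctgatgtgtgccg
Depdc1a: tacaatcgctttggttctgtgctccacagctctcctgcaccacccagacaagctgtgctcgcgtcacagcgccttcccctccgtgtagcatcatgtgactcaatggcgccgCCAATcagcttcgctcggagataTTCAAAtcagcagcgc
Ckap2l: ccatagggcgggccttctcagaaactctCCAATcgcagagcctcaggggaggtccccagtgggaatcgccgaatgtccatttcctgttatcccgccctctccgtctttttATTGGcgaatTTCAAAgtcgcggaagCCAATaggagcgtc
Ckap5: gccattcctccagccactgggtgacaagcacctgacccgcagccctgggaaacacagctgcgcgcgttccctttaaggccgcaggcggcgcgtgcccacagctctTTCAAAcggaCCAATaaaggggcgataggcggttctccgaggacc

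In Kif11 the TTTGAA word begins 19 bases before the start site and the CCAAT word 45 before it. In Kif22 they begin 17 and 54 bases before it, and in Depdc1a 16 and 39. Among the 16 interphase transport kinesins and their partners in the table, 1 held TTTGAA, Kif1a, or 6.25%, against 20.2% of all genes. The word stood in 3 of 13 abscission genes (Pdcd6ip, Chmp2b and Zfyve26) and 1 of 2 chromosomal passenger complex genes (Cdca8). It stood in 8 of 28 other spindle and centrosome genes and 7 of 16 regulators of late cell cycle transcription. Of general actomyosin genes 0 of 5 held it, and of stathmin and TACC relatives 0 of 3. Outside the 31 genes, 111 genes that passed 1.5-fold lower in TA and in heart were in the table, and 31.5% of them held TTTGAA, against 1235 of the 8811 genes measured in both knockout comparisons. Only Kif18a, Nusap1, Tacc3 and Cit of the 27 genes had none of the 4 CHR words. Nusap1 and Tacc3 passed 1.5-fold lower in each tissue, and of Kif18a and Cit only Kif18a passed 1.5-fold, in heart. A further probe set of Tacc3 fell short of 1.5-fold in TA, at -0.40 in log2. The E2F words TTTCCCGC, TTTCGCGC, TTTGCCGC and TTTGGCGC stood in 3 of 27 genes, Arhgap11a, Kif15 and Kif18a, against 2.6% of all genes.

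**Figure D1:**
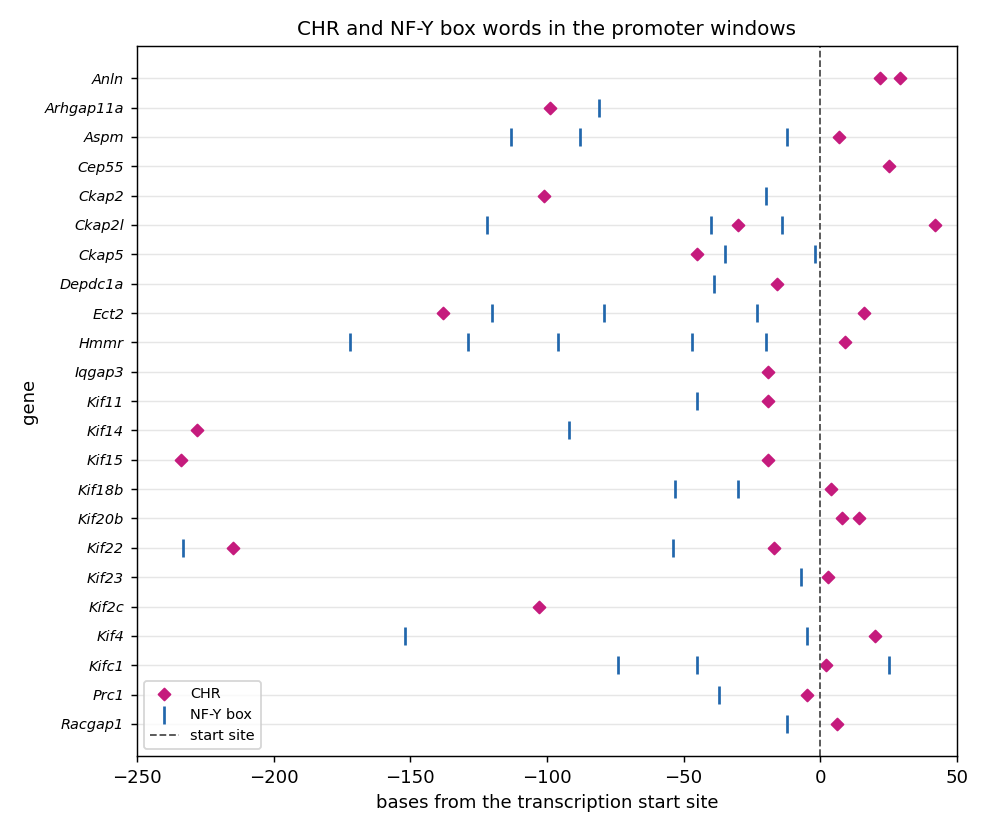
Positions of CHR (TTTGAA, diamonds) and NF-Y box (CCAAT, ticks) words in the promoter windows of the 23 genes that hold the CHR word, on an axis of bases from the transcription start site (dashed line), 1 window per gene. The diamonds gather within 50 bases of the start site in 19 of the 23 genes.

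Among the kinesins, Kif11 (kinesin-5, which pushes the spindle poles apart) had a signal of 178 in knockout TA and 371 in wild-type TA, and of 178 in knockout heart and 540 in wild-type heart. It was thus 2.09-fold lower in knockout TA and 3.04-fold lower in knockout heart, and a further probe set gave log2 ratios of -0.76 and -1.05. Kif22, a chromosome-bound kinesin that moves chromosome arms outwards, had signals of 876 in knockout and 2035 in wild-type TA, and of 891 in knockout and 2598 in wild-type heart. The knockout pools of both tissues lay close together for these genes, and the wild-type pools lay far above them. Kif22 was 2.32-fold lower in TA and 2.91-fold lower in heart, but its bright probe set belongs to a class that can match several transcripts, and without that class its log2 ratios were -0.62, with the knockout signal under the floor, and -0.37.

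Kif2c, a kinesin-13 that takes microtubules apart at centromeres, had the lowest ratio of all 11478 genes measured in heart. It read 102 in knockout heart against 374 in wild-type heart, 3.66-fold lower, and 154 against 249 in TA, 1.61-fold lower. The knockout heart signal lies just above the floor. The probe set is of the class that can match several transcripts, and the others disagreed in size, with 133 against 143 and 91.5 against 159 in heart. Without that class the log2 ratio of Kif2c in heart was -0.10, so its place among all genes rests on 1 probe set.

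Kif20a and Kif20b, kinesin-6 motors of the central spindle, were lower in both tissues. Kif20a had signals of 121 in knockout and 276 in wild-type TA, and of 197 in knockout and 497 in wild-type heart, 2.29-fold and 2.53-fold lower. Kif20b was 2.62-fold lower in heart, at 161 against 421, and at least 1.90-fold lower in TA, where the knockout signal of 94.7 was under the floor and the wild-type signal 192. Kif23, the kinesin-6 subunit of centralspindlin, had signals of 240 against 381 in TA and 216 against 548 in heart, 1.59-fold and 2.54-fold lower. For Kif20a and Kif23 the deficit was larger in heart, while the TA value of Kif20b is only a lower bound and cannot be ranked against its heart value. The median over both measured probe sets of Kif23 was -0.68 in heart, in log2, and the further one was dim.

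Kif4, a chromokinesin that stops microtubule growth at the central spindle, was 1.52-fold lower in TA and 2.25-fold lower in heart, with signals of 188 and 287 in TA and 137 and 309 in heart. Kif18b, a kinesin-8 that trims microtubule ends, was 1.62-fold lower in TA and 3.03-fold lower in heart, with signals of 140 and 227 in TA and 131 and 397 in heart. Its relative Kif18a, which restrains chromosome swings at metaphase, was dim, at 72.5 in knockout and 129 in wild-type TA and at 72.2 and 165 in heart. It reached the floor only in the wild-type pools, and so had to be lower in the knockout, by at least 1.27-fold in TA and at least 1.63-fold in heart. Kifc1, a minus-end motor that focuses spindle poles, was 1.44-fold lower in TA and 2.07-fold lower in heart, with signals of 116 and 166 in TA and 142 and 294 in heart.

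As a group, 8 of 10 measured mitotic kinesins were at least 1.5-fold lower in knockout TA and 10 of 10 in knockout heart, with median log2 ratios of -0.69 and -1.37. The median over all genes was -0.01 in TA and -0.002 in heart. Kif14, which works with the citron kinase in abscission, had signals of 1.9, 3.1, 4.5 and 3.5 in knockout TA, wild-type TA, knockout heart and wild-type heart. Kif15, a partner of Kif11 in spindle bipolarity, had 51.1, 36.0, 46.3 and 56.7 in the same order. Both lay under the floor on all 4 arrays, so no ratio is given for them.

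**Figure D2:**
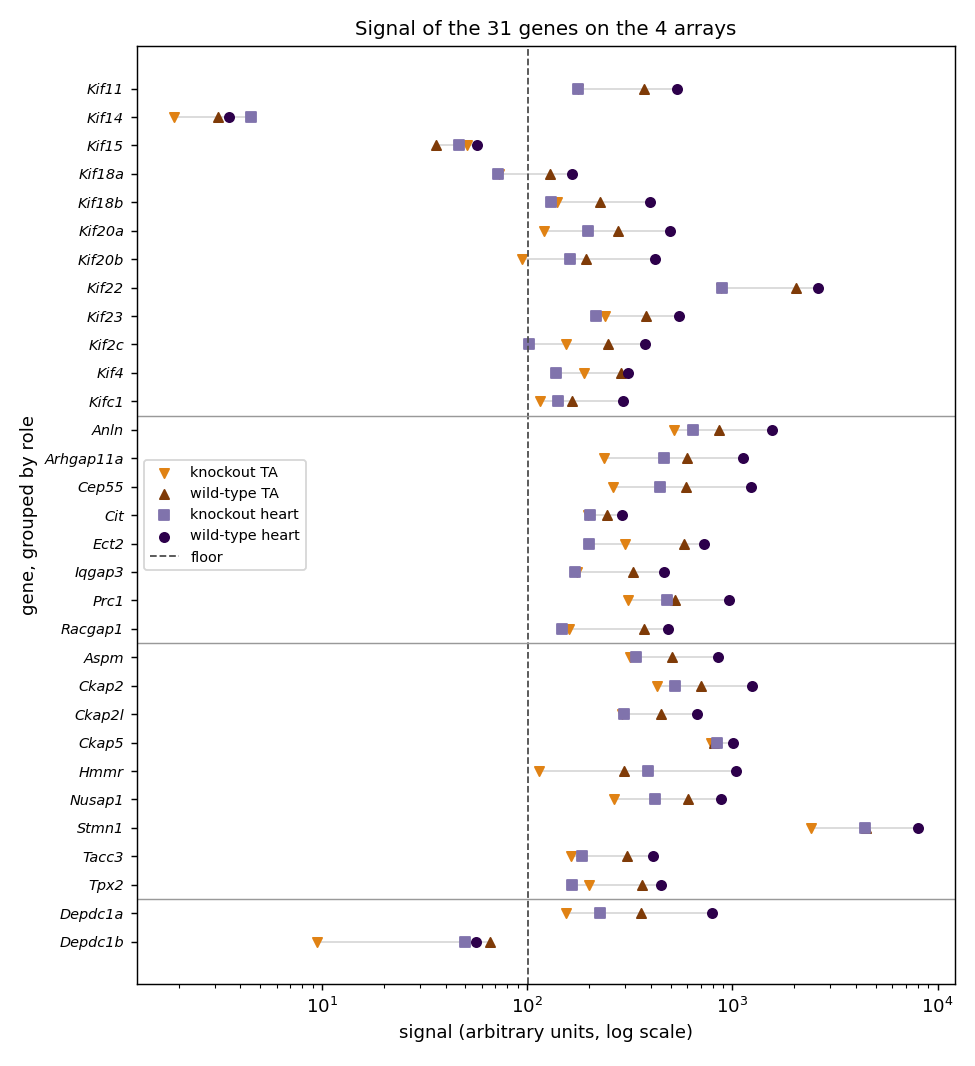
Signal of each of the 31 genes on the 4 arrays (x axis, log scale, arbitrary units), in rows grouped by role and marked by group, with the floor of 101 as a dashed line. The wild-type heart symbol lies farthest right in all 28 genes that reach the floor, and Kif14, Kif15 and Depdc1b lie left of it.

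Genes of the central spindle and contractile ring had the same direction. Ect2, the exchange factor that activates RhoA at the cell equator, had signals of 300 in knockout and 582 in wild-type TA, and of 199.8 in knockout and 730 in wild-type heart. That was 1.94-fold lower in TA and 3.65-fold lower in heart, and only Kif2c had a lower ratio in heart. Racgap1, the centralspindlin subunit that recruits Ect2, had 159.9 against 372 in TA and 149 against 487 in heart, 2.33-fold and 3.28-fold lower. A further probe set of Racgap1 gave log2 ratios of -0.79 and -1.23, so its direction was the same on both.

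Prc1, which bundles the antiparallel microtubules of the central spindle, was 1.71-fold lower in TA and 1.99-fold lower in heart, with signals of 308 and 527 in TA and 482 and 960 in heart. Its probe set is of the class that can match several transcripts. The other probe set of Prc1 gave log2 ratios of -1.29 in TA and -1.17 in heart. Anln, the ring scaffold anillin, was 1.66-fold and 2.41-fold lower, at 519 and 861 in TA and 643 and 1551 in heart. Cep55, which brings the abscission machinery to the midbody, was 2.28-fold and 2.78-fold lower, at 261 and 593 in TA and 443 and 1233 in heart. For all 3 the wild-type heart pool had the highest signal and the knockout TA pool the lowest.

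Arhgap11a, a RhoA GTPase-activating protein of dividing cells, had the largest TA deficit of the ring genes, with 237 in knockout and 603 in wild-type TA, 2.54-fold lower. In heart it was 464 against 1122, 2.42-fold lower. Iqgap3, an actin-binding scaffold of proliferating cells, was 1.86-fold lower in TA and 2.70-fold lower in heart, at 176 and 327 in TA and 172 and 464 in heart. Cit, which encodes the citron kinase of the midbody, was 1.23-fold lower in TA and 1.42-fold lower in heart, with 198 against 244 in TA and 202 against 288 in heart, and another probe set of Cit was higher in knockout heart. As a group, 7 of 8 of these genes were at least 1.5-fold lower in each tissue, with medians of -0.93 in TA and -1.35 in heart.

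Among spindle assembly genes, Hmmr, a microtubule-binding partner of Tpx2 also known as a hyaluronan receptor, had the lowest ratio of the 28 genes in TA. Its signals were 114 in knockout and 297 in wild-type TA, and 386 in knockout and 1035 in wild-type heart, 2.60-fold and 2.69-fold lower. Its further probe sets were dimmer and under the floor in knockout TA, and the median over its probe sets was -0.44 in TA. Tpx2, which activates Aurora A on spindle microtubules, was 1.82-fold lower in TA and 2.70-fold lower in heart, where its signals were 166 and 449. Its further probe sets gave log2 ratios of -0.77 and 0.02 in heart, the latter near the floor. Nusap1, a microtubule-bundling protein near chromosomes, was 2.30-fold lower in TA and 2.11-fold in heart, at 265 and 608 in TA and 418 and 883 in heart.

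Aspm, a spindle pole protein known for its part in primary microcephaly, was 1.61-fold lower in TA and 2.49-fold lower in heart, at 316 and 508 in TA and 339.7 and 846 in heart. Ckap2 and Ckap2l, related spindle proteins, were 1.64-fold and 1.55-fold lower in TA and 2.37-fold and 2.29-fold lower in heart. Ckap2 had signals of 427 and 703 in TA and 525 and 1246 in heart, and Ckap2l 289 and 449.9 in TA and 296 and 676 in heart. Tacc3, which joins with clathrin to bridge spindle fibres, was 1.87-fold and 2.22-fold lower, at 164 and 307 in TA and 184 and 409 in heart. A further probe set of Tacc3, nearly as bright, gave log2 ratios of -0.40 in TA and -0.63 in heart. A dimmer one gave -0.91 and -1.52. Stmn1, which binds free tubulin and destabilises microtubules, had signals of 2410 against 4459 in TA and 4414 against 8044 in heart, 1.85-fold and 1.82-fold lower. Its deficit was alike in the tissues, and a further probe set was lower in both tissues too.

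Ckap5, a microtubule polymerase that non-dividing cells also use, stood apart, with signals of 783 against 814 in TA and 842 against 1010 in heart. It was 1.04-fold lower in TA and 1.20-fold lower in heart, and on another probe set it was higher in knockout TA. As a group, 8 of 9 spindle assembly genes were at least 1.5-fold lower in each tissue, all but Ckap5, with medians of -0.87 in TA and -1.19 in heart. Of the DEP domain pair, Depdc1a had signals of 154 against 358 in TA and 226 against 796 in heart, 2.33-fold and 3.52-fold lower. Depdc1b stayed under the floor, between 9.4 in knockout TA and 65.8 in wild-type TA, with both heart pools in between.

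At least 2-fold lower were 9 of the 28 genes in TA, where 0.917% of all genes were, and 23 of 28 in heart, where 1.19% were. The 9, which were Kif11, Kif20a, Kif22, Racgap1, Cep55, Nusap1, Arhgap11a, Depdc1a and Hmmr, were at least 2-fold lower in heart too. In heart the 23 genes made up 16.8% of the 137 genes that were 2-fold lower, and 7 of the 25 lowest ratios of all genes were theirs. In TA the 9 made up 8.49% of 106 genes, and 1 of the 25 lowest ratios, that of Hmmr, was theirs. Leaving out Kif18a and Kif20b, which did not reach the floor on every array, 23 of 26 genes were at least 1.5-fold lower in TA and 24 of 26 in heart.

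In TA 17 further probe sets of 13 genes were measured, but 7 of them reached the floor in the wild type only and so had to come out lower in the knockout. Of the 10 that reached it in both TA pools, 9 were lower in the knockout, 8 of them at least 1.5-fold, and that of Ckap5 was higher. In heart 21 of 15 genes were measured, of which 5 reached the floor in the wild type only. Of the 15 that reached it in both heart pools, 14 were lower in the knockout, 11 of them at least 1.5-fold, and that of Cit was higher. Probe sets of 1 gene read the same RNA on the same array and are not replicates.

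The heart pools differed more than the TA pools for most genes. The log2 ratio was lower in heart than in TA for 25 of 28 genes, and Nusap1, Arhgap11a and Stmn1 were the exceptions, by at most 0.12. Among the 25 are Kif18a and Kif20b, whose TA ratios are lower bounds, so that their order is not settled. For some genes the order turned on the probe set. It was reversed on another probe set of Prc1, at -1.29 in TA and -1.17 in heart, and of Cit, at -1.04 and 0.51. For Kif22 it was reversed on 1 probe set, at -0.62, a lower bound on the deficit, and -0.37, and kept on another, at -0.88 and -1.38. Another probe set of Stmn1 had the lower ratio in heart. Those of Kif11 and Racgap1 kept the order. Subtracting the heart log2 ratio from that of TA gave a median of 0.51. In 6 genes, Kif2c, Kif18b, Kif23, Ect2, Depdc1a and Aspm, the heart deficit exceeded the TA deficit by at least 1.5-fold, a difference that 6.43% of all 10843 genes showed. It was 0.91 in log2 for Ect2 and 0.90 for Kif18b. It was 1.18 for Kif2c, but that gene's direction turned on another probe set, with ratios of -0.48 in TA, a lower bound on the deficit, and -0.10 in heart. With 1 array per group this difference between tissues was not tested.

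Of the 28 genes, 24 were at least 1.5-fold lower in both tissues, as were 1.47% of all genes, and Kif18a and Kifc1 were so in heart only. Ckap5 and Cit were in neither. Across the 28 genes the TA and heart log2 ratios correlated at 0.645 (Pearson) and 0.54 (Spearman), as a description across genes that share probe sets between the tissues but no array. Over all 10843 genes the Spearman value was 0.274. Across the 28 genes the mean signal and the log2 ratio had Spearman values of -0.299 in TA and 0.091 in heart.

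**Figure D3:**
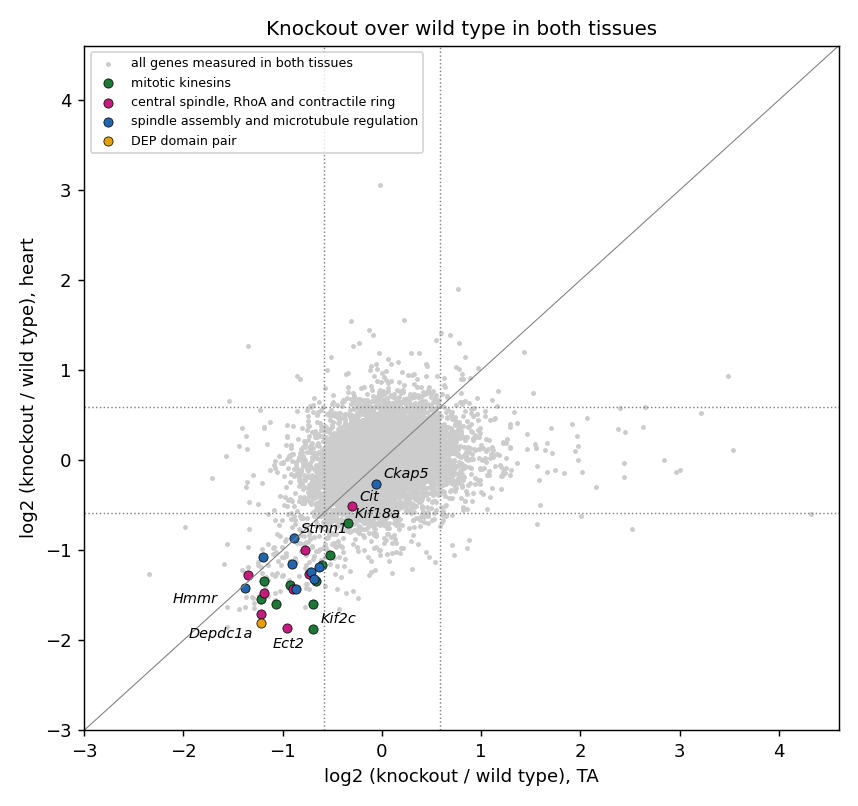
Log2 ratio of knockout over wild type in TA (x axis) against heart (y axis) for all genes measured in both tissues (grey) and the 28 genes by role (coloured). Dotted lines mark 1.5-fold and the solid line equal ratios. The coloured points lie in the lower left, 25 of 28 below the line of equal ratios, with Ckap5, Cit and Kif18a nearest to the centre.

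In the wild type, all 28 genes had a lower signal in TA than in heart, as did 55.1% of all genes. At least 1.5-fold lower in TA were 15 of 28, where 18.0% of all genes were, and none was 1.5-fold higher, where 14.5% were. The median log2 ratio of TA over heart was -0.59. Hmmr had the largest difference, 3.48-fold lower in TA, followed by Depdc1a at 2.22-fold, Kif20b at 2.19-fold and Cep55 at 2.08-fold. Kif4 differed least, at 1.08-fold. This comparison shares the wild-type arrays with the knockout comparisons, so the values of the latter are not independent of it.

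In the knockout, the tissues lay closer together. The median log2 ratio of TA over heart was -0.11 over the 27 genes measured there, and 8 of 27 were at least 1.5-fold lower in TA, where 18.5% of all genes were. Kif2c and Ect2 were at least 1.5-fold higher in knockout TA than in knockout heart, by log2 ratios of 0.59 for each, where 16.5% of all genes were as high. Another probe set of Kif2c had the opposite direction, with signals of 67.9 in knockout TA and 133 in knockout heart and a log2 ratio of -0.39. Kif11 had a log2 ratio of -0.0008, with nearly the same signal in both knockout pools. Hmmr kept its tissue difference, with -1.80 in the wild type and -1.76 in the knockout. In 26 of 28 genes, all but Hmmr and Ckap5, the knockout heart signal was below that of wild-type TA. Gene by gene, the change in TA over heart between genotypes equals the TA minus heart difference in log2 ratios given above. It therefore restates the larger heart deficit of most genes and is no further result.

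**Figure D4:**
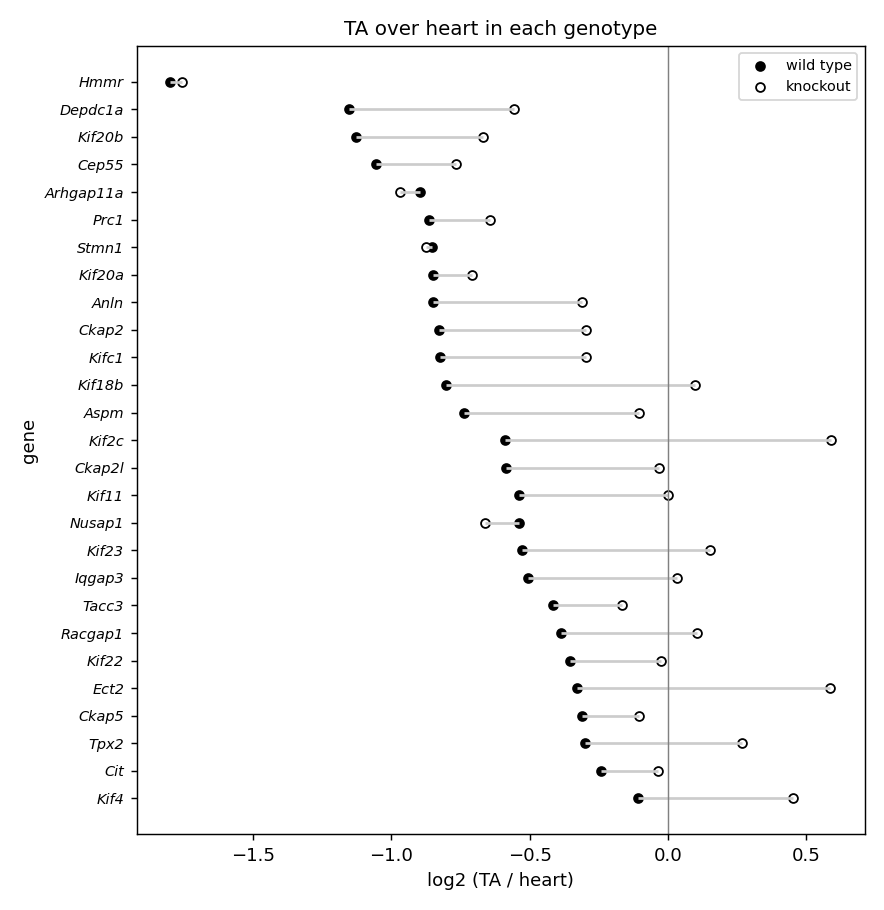
Log2 ratio of TA over heart for the 27 genes measured in both genotypes, in the wild type (filled) and the knockout (open), ordered by the wild-type value. All filled points lie left of 0, and the open points lie to the right of them except for Nusap1, Arhgap11a and Stmn1.

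Neighbours of these genes in the pathway were counted in the same way. All 4 genes of the chromosomal passenger complex, which places Aurora B on the central spindle, were at least 2-fold lower in both tissues, as were 0.516% of all genes. Its scaffold gene Incenp had signals of 385 against 855 in TA and 498 against 1249 in heart, 2.22-fold and 2.51-fold lower. Cdca8, the borealin subunit, was 2.47-fold and 2.89-fold lower. Among other spindle and centrosome genes, 6 of 33 were at least 1.5-fold lower in TA and 13 of 34 in heart, against 4.43% and 4.18% of all genes. None was 1.5-fold higher, which lies near the shares of all genes, 4.19% in TA and 2.68% in heart. Among those counted as lower, Cenpe in TA and Spag5, Ska1, Troap and Stil in heart reached the floor in the wild type only. These could only come out lower. Fam83d, a spindle partner of Hmmr, was 2.31-fold and 2.38-fold lower, the kinetochore motor gene Cenpe at least 2.28-fold and 2.77-fold lower, and the mitotic kinase gene Plk1 1.18-fold lower in TA and 2.89-fold lower in heart.

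The transcription regulators of late cell cycle genes had 2 of 17 genes at least 1.5-fold lower in TA, E2f7 and Rbl1, and 6 of 17 in heart. Over all genes 4.43% were so in TA and 4.18% in heart. Foxm1, an activator of mitotic genes, had signals of 167 against 226 in TA and 144 against 277 in heart, 1.35-fold and 1.93-fold lower. E2f7, a repressor of the E2F family, was 2.11-fold and 2.78-fold lower. In heart E2f8 was 1.93-fold and Rbl1 1.79-fold lower. Mybl2, the B-Myb gene, named after its values were seen, was under the floor on all 4 arrays. The list medians were -0.27 in TA and -0.30 in heart.

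Machinery that non-dividing cells also use was counted too, and with so few genes per list its counts lie near the shares over all genes, of 4.43% lower and 4.19% higher in TA and of 4.18% and 2.68% in heart. None of the 17 measured kinesins and kinesin light chains of interphase transport in TA, and none of the 18 in heart, was past 1.5-fold in either direction, with medians of -0.01 and 0.03. The largest ratios were 1.30-fold higher for Kif3a in TA and 1.28-fold higher for Klc4 in heart. Kif2a is counted on this list though it is a kinesin-13 like Kif2c. It was chosen after its values were seen, and had signals of 624 against 672 in TA and 868 against 816 in heart. Of the abscission machinery, the ESCRT genes that cut the midbody and also act on endosomes, none of 16 genes in TA and none of 17 in heart was 1.5-fold lower. Pdcd6ip, which encodes the ESCRT adaptor ALIX, was 1.58-fold higher in TA and 1.03-fold lower in heart.

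**Figure D5:**
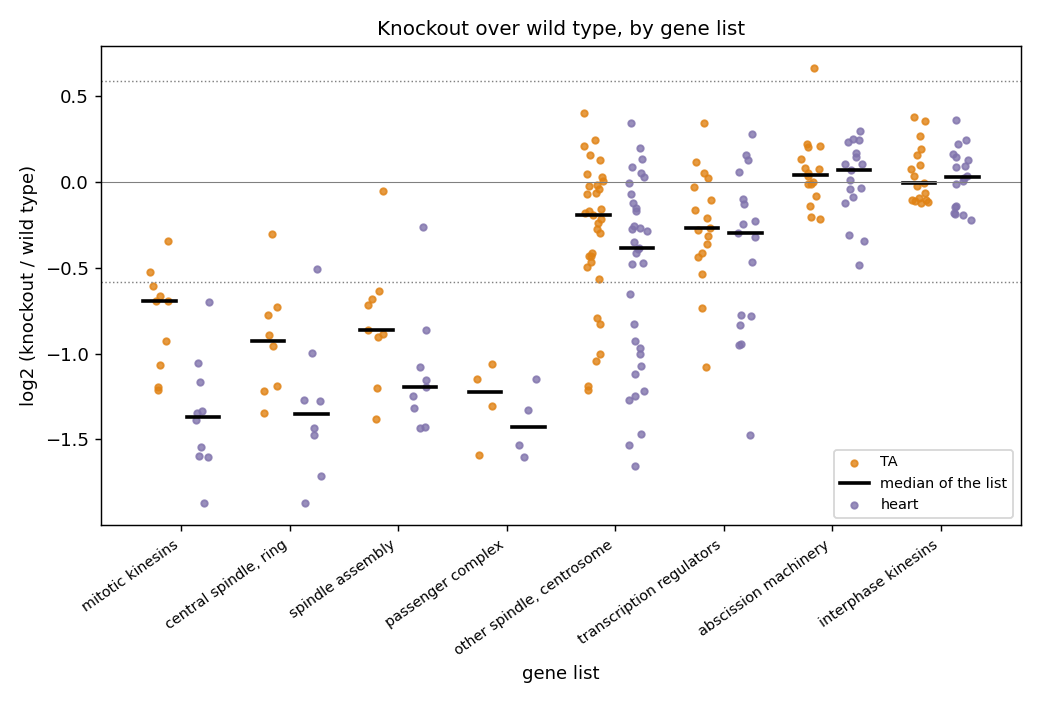
Log2 ratio of knockout over wild type in TA and heart for each measured gene (points) of 8 gene lists (x axis), with the list median as a black bar and dotted lines at 1.5-fold. The 3 lists of members and the passenger complex lie below 0 throughout, while the abscission machinery and the interphase kinesins lie around 0.

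Other facts of the 4 arrays bear on these values. Hhatl itself was 5.09-fold lower in knockout TA and 2.40-fold lower in knockout heart, on a probe set that may lie outside the deleted stretch. The tissue labels fitted their markers, as 8 of 8 skeletal muscle genes were at least 1.5-fold higher in wild-type TA and 7 of 8 heart genes, all but Actc1, at least 1.5-fold higher in wild-type heart. The Y-linked gene Uty was 2.71-fold higher in knockout TA and 2.29-fold higher in knockout heart, Eif2s3y 1.78-fold and 2.21-fold, and Kdm5d 1.57-fold and 1.64-fold, while Xist was 1.44-fold and 1.30-fold lower. The pools of the 2 genotypes therefore differed in sex-linked transcripts in both tissues, and the part of this in the results was not tested. Among markers of other cell types, the list medians of knockout over wild type ran from -0.34 (erythroid, on 1 measured gene of 8) to 0.02 (smooth muscle and pericyte) in TA.

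In heart the medians of those lists ran from -0.07 (fibroblast) to 0.03 (endothelium). Of 8 satellite cell and myoblast markers, 7 were lower in knockout TA, as were 51.2% of all measured genes, with a median log2 ratio of -0.27. None was 1.5-fold lower, where 4.43% of all genes were. Vcam1 had -0.52, Cdh15 -0.41, Chrna1 -0.37 and Pax7, the defining gene of satellite cells, -0.32. Their summed signals were 17850 in knockout and 18558 in wild-type TA, of which Des alone, the exception, gave 11819 and 11062. The summed signals of 8 smooth muscle and pericyte markers were 31072 in knockout and 40487 in wild-type TA, and 43702 and 54009 in heart. In TA, Rgs5 gave 9963 and 15804 of these and Acta2 14331 and 17943, while 4 of the 7 genes measured were higher in the knockout. For 8 endothelial markers the sums were 11043 in knockout and 12324 in wild-type TA, and 20120 and 20555 in heart. The summed signals of 8 fibroblast markers were 123230 and 135276 in TA, and 99963 and 103963 in heart. Past 1.5-fold were the endothelial gene Egfl7 at 1.68-fold lower and the pericyte gene Rgs5 at 1.59-fold lower in TA, and the leukocyte gene Laptm5 at 2.13-fold lower in heart. Klf1, Hba-a1, Epb42 and Ermap of the erythroid list lay under the floor on all 4 arrays. The part of these markers in the deficit of the 28 genes was not tested.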

How the data were processed

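The deposited files hold linear intensities, 1 for each probe set of an array, which the submitters' processing notes tie to MAS5. Version, scaling target and detection calls are unknown here. RNA was pooled before hybridisation per the series' design text. Trimmed means (2% cut from either end) ran from 496.35 to 496.83, and the arrays were compared as deposited, and 49.5% to 50.7% of 45037 probe sets per array reached the floor. The number of arrays limits the precision.

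Genes were named from the platform's annotation, using 34945 probe sets with 1 symbol and leaving out 932 with several and 9160 with none. All 31 members matched RefSeq by gene identifier. Signals under the floor of 101.3, the median of all signals, were raised to it, and a fold is written "at least" where that happened. A gene was measured if at least 1 array compared reached the floor, and it was represented by its brightest measured probe set, by mean over all 4 arrays. Log2 ratios of these signals were counted at 1.5-fold and 2-fold. No test was possible. The computation was tested on simulated arrays, with changes planted only in genes far above the floor. Recovery of changes near the floor was not tested. Of other lists, up to 4 genes with the largest ratios and genes behind counts of 5 or fewer were to be named. Members and lists were chosen with earlier results of these data known. Promoter windows came from RefSeq (GRCm38.p6). Python 3.11.15, numpy 2.4.6, pandas 2.3.3 and matplotlib 3.10.9 were used.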

Additional observations from a re-analysis of the deposited data

Results flagged for a closer look

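Probe sets of Cit and Ckap5 ran in opposite directions in the tissues, each on a probe set that did not stand for its gene. A further probe set of Cit had a log2 ratio of knockout over wild type of -1.04 in TA and 0.51 in heart, with signals of 117 and 241 in TA and 193 and 136 in heart. A further probe set of Ckap5 had 0.27 in TA and -0.37 in heart, with signals of 228 and 189 in TA and 161 and 209 in heart. The probe sets that stood for these genes were lower in both knockout pools. With 1 array per group these differences between tissues were not tested.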

How the results depend on the processing

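Alternatives were other scalings, other floors or none, an added constant of 64, and other rules for several probe sets. Added after seeing the data were 2 other filters on low signals. Counts were held to have moved beyond 1.5 times, and log2 ratios beyond 0.585. Over all of these, 11 to 31 members were measured in TA and 18 to 31 in heart, so the medians are of differing sets of genes. The median of the measured members ran from -0.89 to -0.35 in TA and from -1.37 to -0.85 in heart. That of TA over heart in the wild type ran from -0.64 to -0.49, and the difference between tissues from 0.38 to 0.54. No direction of these medians changed. The counts at least 1.5-fold lower moved only under a 75th percentile floor, where fewer genes are measured and ratios shrink, to 3 of 11 genes in TA, 12 of 18 in heart and 9 of 18 for wild-type TA over heart. With cross-matching probe sets left out, 1 gene, Cit, was 1.5-fold higher in wild-type TA than in heart. Of 881 values of single genes, 24 moved, and 0 of those past 1.5-fold in the main setting changed sign. Cit, not past 1.5-fold there, did change sign with cross-matching probe sets left out. Its log2 ratio of knockout over wild type in heart went from -0.51 to 0.51. That of wild-type TA over heart went from -0.24 to 0.83. The floor limits the ratios of Kif18a in both tissues and of Kif20b in TA. No paired analysis was possible because each group has 1 array.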

Other observations

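Of the stathmin and TACC relatives, 4 were measured, and none passed 1.5-fold in either tissue, a count near what the shares of all genes give (4.43% lower in TA and 4.18% in heart). Stmn2, a neuronal relative of Stmn1, had signals of 242 in knockout and 218 in wild-type TA, and of 244 and 248 in heart. Tacc1 and Tacc2, relatives of Tacc3, were 1.07-fold and 1.11-fold higher in TA and 1.08-fold and 1.30-fold higher in heart. Ckap4, a membrane protein of the endoplasmic reticulum that shares only its name with the other Ckap genes, was 1.10-fold and 1.30-fold lower.

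Of the general actomyosin genes that the contractile ring uses, 5 of 13 listed were found by symbol and measured, and none passed 1.5-fold in either tissue, again near the shares of all genes. Rhoa was 1.10-fold higher in TA and 1.11-fold lower in heart, and the non-muscle myosin gene Myh9 1.14-fold and 1.22-fold lower. Cfl1, the cofilin gene, was 1.19-fold and 1.37-fold lower.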
